A study of Solanum lycopersicum with 6 samples.

Results

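NR, ETR5 and ETR6 are 3 ethylene receptor genes of tomato (Solanum lycopersicum), chosen by their identifiers among the 8703 genes of the authors' deposited table. NR (Solyc09g075440.3) and ETR6 (Solyc09g089610.3) lie on chromosome 9, and ETR5 (Solyc11g006180.2) lies on chromosome 11. RNA was sequenced from pericarp, the fleshy fruit wall, taken at the equator of fruit at 38 days after anthesis. Transgenic lines called jmj7 gave 3 libraries and wild-type plants (WT) gave 3, all in the Ailsa Craig background and grown in a greenhouse. The labels do not give the construct, the allele or the number of lines behind jmj7, nor whether fruits were pooled or libraries came from separate plants, so p-values measure only the spread between these libraries. By its title the series asks how a histone demethylase acts on ethylene signalling and ripening. The columns taken as jmj7 carry a prefix that is in no label and were assigned by elimination, with libraries numbered as their columns are; every direction below rests on this. No gene could be identified as the target in the files or the reference gene table, and the labels were not checked by its level.

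Ethylene receptors sit in the endoplasmic reticulum membrane and act as brakes. Without ethylene they keep the kinase CTR1 active, which holds the pathway off through EIN2 and the EIN3-like transcription factors. Ethylene binding switches the receptors off, so that a cell with more receptor protein needs more ethylene to respond. Tomato receptors fall into subfamily I, which includes NR, and subfamily II, which includes ETR5 and ETR6. NR lacks the receiver domain at the end of the protein that ETR5 and ETR6 have, and is named after Never ripe, a dominant mutation that makes the fruit insensitive to ethylene. NR transcript is known to rise at the onset of ripening in wild-type fruit.

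In jmj7 pericarp NR was high, and ETR6 and ETR5 were low, relative to WT. NR was 13.4-fold higher in jmj7, ETR6 was 6.57-fold lower and ETR5 was 2.40-fold lower, each with edgeR's quasi-likelihood test on read counts scaled by the size factors behind the authors' normalized counts. The sizes moved with the scaling. Over the 5 scalings tried, NR was 6.52-fold to 31.4-fold higher, ETR6 was 2.80-fold to 13.5-fold lower, and ETR5 was 1.02-fold to 4.93-fold lower. ETR5 lost its call at the small end, with size factors recomputed over genes that were all selected for a difference. In the summed FPKM of the 3 genes, a level per length, NR made up 98.4% in jmj7 and 44.1% in WT, while ETR6 made up 1.31% in jmj7 and 51.6% in WT. This change of make-up does not depend on how libraries were scaled. A change in the make-up of the tissue, with fewer cells of a type, cannot be told apart from less RNA per cell in these bulk samples.

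The background leaves little to read from the calls themselves. The deposited table holds only genes with an absolute log2 fold change above 1.00 in the authors' comparison. All of the 7622 genes that passed the filter on low counts were called in the fit here (100%), 37.2% of them higher and 62.8% lower in jmj7, and the normalized counts of the groups did not overlap in 99.7%. The 3 receptors passed the filter, and their sizes of change, order and proportions are therefore described rather than the fact of a call. Reads in the table's genes ranged from 10937853 to 15254146 in jmj7 libraries and from 7508105 to 9155968 in WT libraries. No pair of libraries of a group agreed within sampling noise (chi-square per gene 1.63 to 3.63).

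NR was counted from 33807, 23358 and 23853 reads in the jmj7 libraries, against 2637, 2455 and 3070 reads in the WT libraries. After the authors' normalization these were 31721, 30755 and 30182 in jmj7, against 2271, 2299 and 2345 in WT. The lowest jmj7 library stood far above the highest WT library, and the libraries of a group lay close together. The means were 30886 ± 778 normalized counts in jmj7 and 2305 ± 37.8 in WT (SD, n = 3 each), a coefficient of variation of 2.52% in jmj7 and 1.64% in WT. On the log2 scale it was higher by 3.74 ± 0.0360 (SE), with an edgeR adjusted p of 5.04e-42. Among the genes called higher, 86.2% had a smaller log2 fold change than NR. Per length, NR had 511, 494 and 486 FPKM in jmj7, against 54.3, 54.0 and 55.3 FPKM in WT. The next identifier in the table, Solyc09g075445.1, also rose (log2 fold change 3.97), and the sources used here do not say whether it shares reads with NR. By mean FPKM, NR ranked 113 of the 8703 table genes in jmj7 and 893 in WT. The ratio of mean FPKM was 9.11, smaller than that of normalized counts, because the library totals behind the FPKM and the size factors differ by a further factor between the groups (0.680 as size factor over FPKM depth, jmj7 over WT, or -0.56 on the log2 scale).

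ETR6 was counted from 499, 385 and 337 reads in jmj7, against 3591, 3220 and 4058 reads in WT. These came to 468, 507 and 426 normalized counts in jmj7, against 3092, 3015 and 3100.2 in WT. Every jmj7 library was far below every WT library. The means were 467 ± 40.3 normalized counts in jmj7 and 3069 ± 47.1 in WT (SD, n = 3 each). The fitted log2 fold change was -2.72 with an SE of 0.0566 (edgeR adjusted p = 5.47e-33), and 55.2% of the genes called lower fell by less. ETR6 had 6.62, 7.16 and 6.03 FPKM in jmj7, against 65.0, 62.2 and 64.3 FPKM in WT, and its mean FPKM was 9.67-fold lower in jmj7. The spread between jmj7 libraries, 8.62%, was wider than the 5.01% that counting alone gives at these reads.

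ETR5 had the fewest reads of the 3, with 151, 94 and 71 in jmj7, against 343, 263 and 419 in WT. They came to 142, 124 and 89.8 normalized counts in jmj7, against 295, 246 and 320.1 in WT. The groups did not overlap, but the gap was narrow beside that of NR or ETR6. The lowest WT library exceeded the highest jmj7 library by 42.5% of the WT value. The means were 118 ± 26.3 normalized counts in jmj7 and 287 ± 37.6 in WT (SD, n = 3 each), and the coefficient of variation of 22.2% in jmj7 and 13.1% in WT was more than the counting error of 10.1% and 5.48%. The fitted log2 fold change was -1.26 with an SE of 0.135 (edgeR adjusted p = 3.37e-11), and 12.7% of the genes called lower fell by less. Per length ETR5 had 1.81, 1.58 and 1.15 FPKM in jmj7, against 5.61, 4.59 and 5.99 FPKM in WT, and its mean FPKM was 3.57-fold lower in jmj7.

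**Figure D1:**
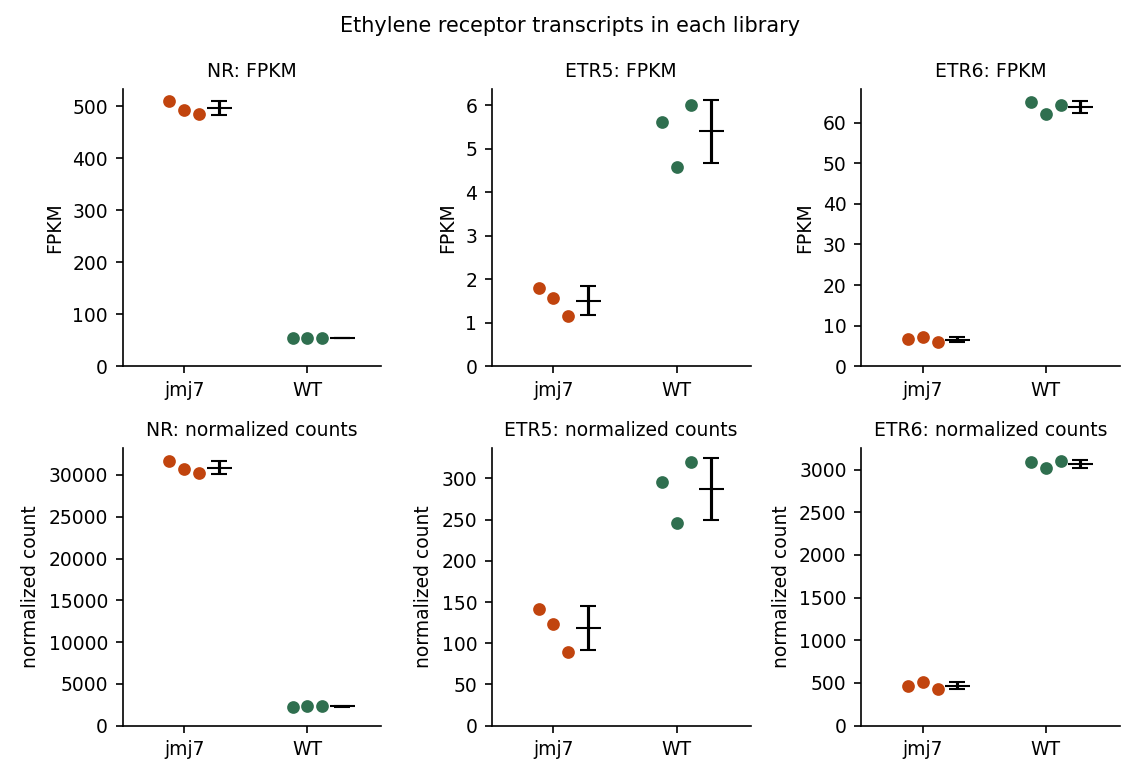
Level of each receptor gene in each library, as FPKM (upper row) and as the authors' normalized counts (lower row), on linear axes that start at 0; points are libraries, jmj7 left and WT right, and the bar beside them is the mean ± SD (n = 3). The NR points of jmj7 lie between 486 and 511 FPKM, above WT, while the ETR5 and ETR6 points of jmj7 lie below all WT points.

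ETR5 was the only receptor to lose its call under any of the scalings. This happened with size factors recomputed by DESeq2's method over the table's genes, a method that takes most genes as unchanged. Its log2 fold change was then -0.034 ± 0.132 (SE), with an edgeR adjusted p of 0.818. By the authors' comparison no gene of the table is unchanged, so that assumption, which TMM shares, is not met under their scaling. ETR5 was called lower with TMM (edgeR adjusted p = 7.28e-12), with the totals behind the FPKM (3.30e-14) and with the reads in the table (1.82e-17). Over the 5 scalings tried, the log2 fold change of ETR5 ran from -2.30 to -0.034, that of ETR6 from -3.76 to -1.49, and that of NR from 2.70 to 4.97. ETR6 was called lower and NR higher under each of the 5. Relative to the deposited size factors, the log2 fold change of a gene moved by a median, over the genes tested under both scalings, of 1.23 with recomputed factors, 0.32 with TMM, -0.56 with the totals behind the FPKM and -1.04 with the reads in the table. Of the genes called with recomputed factors, 47.3% were higher in jmj7, against 37.2% with the deposited factors. The sources used here do not say how the authors obtained their size factors.

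**Figure D2:**
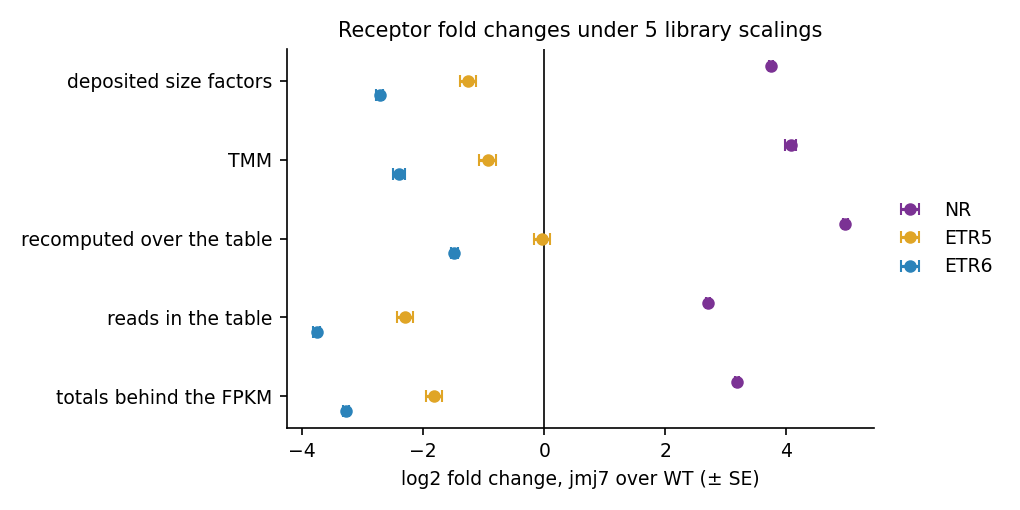
Log2 fold change of each receptor, jmj7 over WT, with its standard error, under 5 ways of scaling the libraries (rows); the vertical line marks no change. NR stays right of the line and ETR6 left of it in every row, while ETR5 reaches -0.034 with size factors recomputed over the table.

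The order of the receptors by FPKM was not alike in the groups. In jmj7 it was NR (497 ± 12.7), then ETR6 (6.60 ± 0.563), then ETR5 (1.51 ± 0.336). In WT it was ETR6 (63.8 ± 1.45), then NR (54.5 ± 0.696), then ETR5 (5.39 ± 0.725; SD, n = 3 in each group). Neighbours in each order were apart by more than their spread, and the WT libraries of ETR6, from 62.2 FPKM, did not reach down to those of NR, up to 55.3 FPKM. Read counts alone would overstate ETR5 beside NR, since the length implied by counts and FPKM was 1.26 times that of NR for ETR5 and 1.14 times that of NR for ETR6.

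As shares of the summed FPKM, NR took 98.4%, 98.3% and 98.5% in the jmj7 libraries, against 43.5%, 44.7% and 44.0% in the WT libraries. ETR6 took 1.28%, 1.42% and 1.22% in jmj7, against 52.0%, 51.5% and 51.2% in WT. ETR5 took 0.349%, 0.314% and 0.233% in jmj7, against 4.49%, 3.80% and 4.77% in WT. In WT, then, ETR6 and NR were near equal parts, whereas in jmj7 NR made up nearly the whole sum. The group means differed by 54.3 percentage points for NR, -50.3 for ETR6 and -4.05 for ETR5 (jmj7 minus WT). Each difference had an exact two-sided permutation p of 0.1, the smallest that 3 against 3 libraries allow, so this design cannot reach 0.05. The genes were also selected for a difference before deposit, with NR higher and ETR5 and ETR6 lower in jmj7. Separation of the NR share, and so of the joint share of ETR5 and ETR6, was bound to follow. The shares are therefore described by their size, and the permutation p is no independent test of the change. For ETR5, the receptor with the fewest reads, the share of the reads of the 3 genes in a library was at most 0.438% in jmj7 (exact Clopper-Pearson 95% interval 0.371% to 0.514%) and at least 4.43% in WT (3.92% to 4.98%), intervals that cover counting error only.

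**Figure D3:**
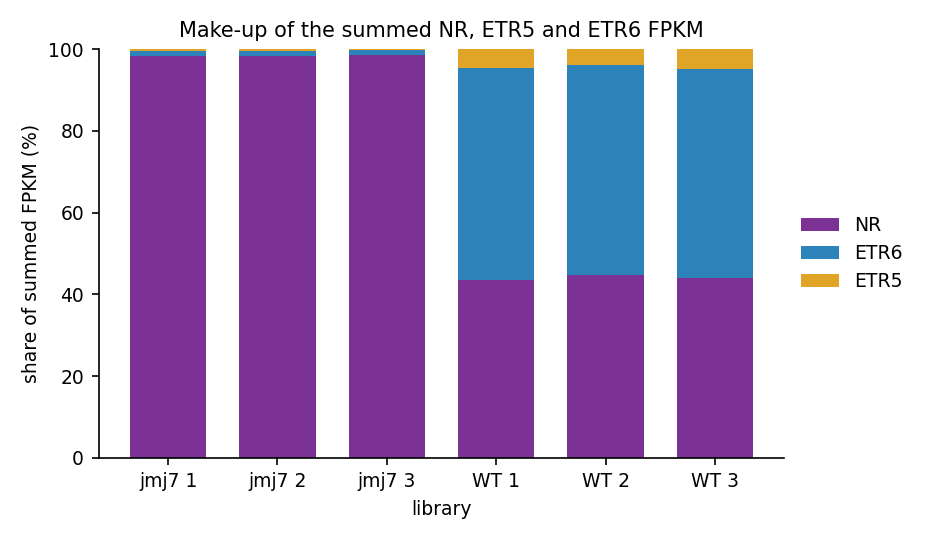
Share (%) of NR, ETR6 and ETR5 in the summed FPKM of the 3 genes, 1 stacked bar per library, jmj7 left and WT right. NR fills 98.3% to 98.5% of each jmj7 bar and 43.5% to 44.7% of each WT bar.

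The summed FPKM of the 3 receptors was 519, 503 and 493 in jmj7, against 125, 121 and 126 in WT. The means were 505 ± 13.3 in jmj7 and 124 ± 2.61 in WT (SD, n = 3 each), a ratio of 4.08 (exact two-sided permutation p = 0.1, the smallest possible). The gain of NR, 442 FPKM, was larger than the loss of ETR6, 57.2 FPKM, and of ETR5, 3.88 FPKM. Summed normalized counts gave a ratio of 5.56. Unlike the shares, the sum moves with the scaling of the libraries, as the single genes did, and its ratio was not computed under the other scalings. The sum covers transcripts of these 3 genes only and is no measure of receptor protein.

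Ratios between receptors within a library are free of its scaling. NR over ETR6 was 77.1, 69.0 and 80.5 in jmj7, against 0.835, 0.867 and 0.860 in WT. NR over ETR5 was 282, 313 and 423 in jmj7, against 9.69, 11.8 and 9.23 in WT. ETR5 over ETR6 was 0.273, 0.220 and 0.190 in jmj7, against 0.0862, 0.0737 and 0.0932 in WT. In each pair the groups did not overlap, so ETR6 moved down relative to ETR5 as well as to NR. For the ratios with NR this separation was bound to follow from the opposite directions of the genes, which were selected for a difference before deposit. On the log2 scale the differences, jmj7 minus WT, were 6.46 for NR over ETR6, 5.04 for NR over ETR5 and 1.42 for ETR5 over ETR6, and each exceeded the spread within groups, whose largest SD was 0.304. The exact two-sided permutation p was 0.1 for each of the 3 pairs, and also 0.1 after Benjamini-Hochberg adjustment over them.

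**Figure D4:**
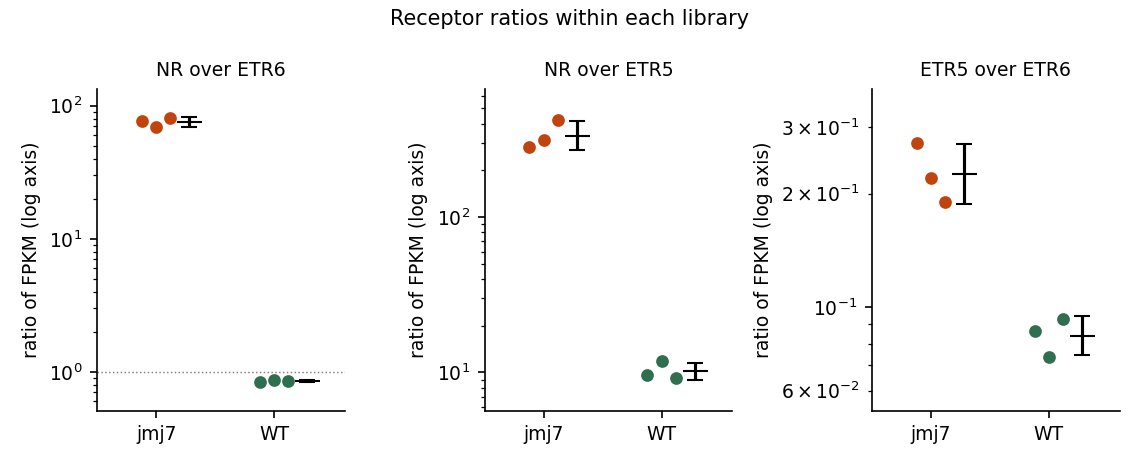
Ratio of FPKM between receptors within each library on log axes, for NR over ETR6, NR over ETR5 and ETR5 over ETR6; points are libraries, jmj7 left and WT right, and bars are the mean ± SD on the log2 scale (n = 3). NR over ETR6 is at least 69.0 in jmj7 and below 1 (dotted line) in WT, at most 0.867.

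The rest of the pathway had few rows in the table used here. Of 18 listed genes of ethylene perception and signalling, 14 have no row and were not analysed here, among them the receptor genes ETR1, ETR2, ETR4 and ETR7, the kinase genes CTR1, CTR3 and CTR4, EIN2, and the transcription factor genes EIL1, EIL2, EIL3 and EIL4. The shares above are therefore shares among 3 of the 7 listed receptor genes. Of the 4 listed genes tested, 1 was higher (NR) and 3 were lower in jmj7, beside 37.2% higher and 62.8% lower of all genes tested. So few genes cannot set the split apart from that background. The median log2 fold change of the 4 was -1.23, against -1.43 over all genes tested. The fourth, whose listed symbol the reference gene table places on another chromosome and which is therefore not named, had 13, 9 and 3 reads in jmj7, against 20, 30 and 27 in WT. Its fitted log2 fold change was -1.19 with an SE of 0.406 (edgeR adjusted p = 0.00415). With size factors recomputed over the table, 1 of the 3 lower genes, ETR6, kept its call.

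Markers of ripening stage and of the epidermis also differed between the groups, and their part in these results was not tested. All 5 listed ripening genes (RIN and NOR, which encode transcription factors required for ripening, the pectin-degrading PG2a, the carotenoid gene PSY1, and the gene listed as E8) were higher in jmj7. Their summed level was 1615550 to 1706770 normalized counts in jmj7 libraries and 4079 to 4311 in WT libraries. Of all genes tested, 100% were called and 37.2% were higher. This list was chosen with earlier results of these data known. Since all fruit were of 1 age, ripening stage and genotype cannot be told apart as sources of the receptor differences. Of 7 listed markers of the epidermis and cuticle, 4 had a row, and all 4 were lower in jmj7, with a summed level of 0 to 2.53 normalized counts in jmj7 libraries and 6039 to 6546 in WT libraries. Of those 4 genes, 3, among them the cutin synthase gene CD1, had 0 reads in every jmj7 library. Lower calls made up 62.8% of all genes tested, and the 3 markers without a row were not analysed here. The epidermis list, too, was chosen with earlier results of these data known.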

How the data were processed

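The authors' deposited table holds, per the file headers, read counts and FPKM values per library. Its normalized counts are a signal, obtained by dividing each library's deposited reads by 1 factor. The log2 fold changes, p-values and adjusted p-values in it are the authors' own, per the file headers; here they served only to describe how rows were selected (largest p 0.0499). HISAT2 was used, per the submitters' processing notes; for its version, the counter, the build and strandedness, the sources used here give nothing. Reads shared with similar or overlapping genes may therefore be assigned in ways that change a value.

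The quasi-likelihood test of edgeR 4.0.16 (R 4.3.3; glmQLFit, glmQLFTest; prior count 0.125) was run on the deposited read counts of all rows, scaled by the deposited size factors, after filterByExpr (minimum count 10), with Benjamini-Hochberg adjustment at 0.05. Standard errors are Wald errors, never less than counting error. Shares, sums and ratios were tested by exact permutation over libraries. Alternatives were TMM, recomputed and total-read scaling, no filter, DESeq2 1.42.0, limma 3.58.1 on log2(FPKM + 1) and log2(FPKM + 0.1), a replicate block and leaving out each library; scaling by the totals behind the FPKM was added after the data were seen. The members and the gene lists were chosen with earlier results of these data known. The genes named are the receptors, list members whose symbol the reference (assembly SLM_r2.1) has on the chromosome in the identifier, and the nearest gene in profile per receptor; Solyc09g075445.1 was added after its values were seen. E8 was matched by the first part of a synonym written with a slash. NR was matched by its synonym ETR3. Marker lists are given as sums. No sequence is printed.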

Additional observations from a re-analysis of the deposited data

How the results depend on the processing

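Of 160 values under alternatives, 158 kept their direction and their side of the threshold, or stayed within 1.5 times the count; the exact tests could not pass 0.05, so their part of this says nothing about significance. With size factors recomputed over the table, the log2 fold change of ETR5 was -0.034 (edgeR adjusted p = 0.818) and the listed pathway genes called lower were 1 in place of 3, since that scaling shifts all genes up. Leaving out 1 library at a time gave a log2 fold change from 3.72 to 3.76 for NR, from -2.77 to -2.66 for ETR6 and from -1.44 to -1.11 for ETR5. The same gave differences in share from 54.0 to 54.6 percentage points for NR, from -50.5 to -50.0 for ETR6 and from -4.33 to -3.84 for ETR5. With the replicate block, taken from column numbers, the log2 fold changes were 3.74 for NR, -2.72 for ETR6 and -1.27 for ETR5, and 2837 genes were called higher and 4785 lower, the counts without it. The numbers did not pair the libraries: correlations of deviations between same-numbered jmj7 and WT libraries were -0.028, 0.0224 and -0.0109, and not every library correlated best with its own number. The depth limits ETR5 most, at 71 to 151 reads per jmj7 library.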

Other observations

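The genes whose profile over the 6 libraries lay nearest to each receptor were found among 4673 genes of at least 100 mean normalized counts, by the Euclidean distance between log2(normalized count + 1) values centred on each gene's mean. Nearest to NR was Solyc11g020040.2, at a distance of 0.0716, with 72684 ± 958 normalized counts in jmj7 and 5263 ± 105 in WT (SD, n = 3 each). Nearest to ETR6 was Solyc03g122040.3, at 0.113, with 212 ± 17.6 normalized counts in jmj7 and 1369 ± 17.9 in WT. Nearest to ETR5 was Solyc09g042710.3, at 0.266, with 59.0 ± 7.66 normalized counts in jmj7 and 150.4 ± 9.43 in WT. The files do not pair these identifiers with names. The ETR5 profile had no neighbour as close as those of NR and ETR6, and its replicate spread was also the widest.

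The identifier that follows NR in the table, Solyc09g075445.1, was looked at after its values were seen. It had 6440.2 ± 184 normalized counts in jmj7 and 411 ± 30.7 in WT, and its fitted log2 fold change was 3.97 with an SE of 0.0524 (edgeR adjusted p = 2.90e-39), beside 3.74 for NR. The length implied by its counts and FPKM was 8.15% of that of NR. Whether its gene model overlaps NR, and how shared reads were then counted, the sources used here do not say, and its part in the NR values was not tested. The gene listed as E8 (Solyc09g089580.3), which responds to ethylene in fruit, is the row just before ETR6 in identifier order. It had 594871 ± 14703 normalized counts in jmj7 and 647 ± 45.9 in WT, so these adjacent rows moved in opposite directions. The row just after ETR6 was also higher in jmj7, with 88.3 ± 9.25 normalized counts against 0 in WT. Since only genes selected for a difference have rows, adjacent rows need not be neighbouring genes. The name E8 is taken from a synonym in the reference, which also gives it to a gene elsewhere in the genome.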
